A study of Mus musculus with 12 samples.

Results

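The genes described here are the laminin chains, the nidogens and the integrin subunits of the mouse, which are 39 of the 26190 genes in the table. They were chosen by a rule on names, with earlier results of these data known: every laminin α, β or γ chain (11 genes), Nid1 and Nid2, every integrin α subunit (18 genes) and the integrin β subunits Itgb1 to Itgb8. RNA was sequenced from 12 libraries in 4 groups of 3. Atria and ventricles came from embryonic hearts at E11.5 (E11.5H) of strain C57BL/6. Atrium-like and ventricle-like parts came from heart organoids (HOs) of the same labelled strain on day 13 of culture. The embryonic stem (ES) cells were wild-type, and the labels name no transgene in any group. HOs were grown in the study from embryoid bodies of these cells on a gel of the laminin-entactin (LN/ET) complex, with FGF4 in the medium from the start and BMP4, the Wnt activator BIO and LIF added later, so both HO groups shared the gel and the factors and E11.5H had neither. The ES cell lines of the study came from C57BL/6 and from an F1 hybrid of C57BL/6 and JF1, and the line behind each library is not given in the sources used here. HOs and E11.5H differ in age, origin, substrate and factors at once, and these cannot be told apart. The chambers were cut out by hand and the cells were not sorted, so each library holds all cell types of its piece. The study calls the HOs biological triplicates, and whether a library of E11.5H came from 1 heart or several is not given in the sources used here.

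Laminins are the main glycoproteins of basement membranes, the thin sheets of matrix on which epithelia, endothelia and muscle cells rest. Each laminin is a trimer of an α, a β and a γ chain and is named by the numbers of its chains. Nidogens bridge the laminin network and the collagen IV network. The LN/ET complex used for the gel is made of the laminin with α1, β1 and γ1 chains (genes Lama1, Lamb1 and Lamc1) and of entactin, which is the protein of Nid1. Integrins are the receptors of matrix, each a pair of an α and a β subunit. The subunits α3, α6 and α7 bind laminins with β1, α6 also pairs with β4 in the hemidesmosomes of epithelia, a group of α subunits with β1, β3, β5, β6 or β8 binds the RGD sequence of fibronectin, vitronectin and latent TGF-β, and the β2 integrins belong to leukocytes. The question behind the description is which chains the tissues themselves transcribed, and which receptors for them, in organoids that were given 1 laminin from outside. RNA of cells is measured, so the protein of the gel adds nothing to these values.

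The promoters of 5 members are shown because their genes carry the results below. Lamb1 and Nid1 code for parts of the gel complex, and Lama5, Itga3 and Itgb6 are a laminin chain and receptor subunits that were high in the same HO libraries. Each is the 250 bases before the annotated start, taken from RefSeq (GRCm38.p6), which held a promoter for 24 of the 39 members. Lamb1 lies at chr12:31265043-31265292 on the plus strand, Nid1 at chr13:13437352-13437601 on the plus strand, Lama5 at chr2:180225860-180226109 on the minus strand, Itga3 at chr11:95076715-95076964 on the minus strand and Itgb6 at chr2:60722604-60722853 on the minus strand. Capitals mark matches on either strand to the letters GGGCGG known for Sp1, the letters CCAAT known for NF-Y, the letters TATAAA of the core promoter, the letters TGANTCA known for AP-1, the letters AGATAA known for GATA factors and the letters CATTCC known for TEAD factors.
Lamb1: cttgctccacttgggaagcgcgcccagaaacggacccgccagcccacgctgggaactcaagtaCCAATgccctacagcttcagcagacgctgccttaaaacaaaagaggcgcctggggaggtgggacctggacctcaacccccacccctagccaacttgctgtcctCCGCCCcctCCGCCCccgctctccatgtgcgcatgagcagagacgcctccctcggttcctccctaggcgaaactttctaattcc
Nid1: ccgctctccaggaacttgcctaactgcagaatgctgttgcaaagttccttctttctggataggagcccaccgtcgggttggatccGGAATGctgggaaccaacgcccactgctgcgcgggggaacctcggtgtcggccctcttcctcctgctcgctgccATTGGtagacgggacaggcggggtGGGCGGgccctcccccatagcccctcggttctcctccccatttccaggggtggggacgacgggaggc
Lama5: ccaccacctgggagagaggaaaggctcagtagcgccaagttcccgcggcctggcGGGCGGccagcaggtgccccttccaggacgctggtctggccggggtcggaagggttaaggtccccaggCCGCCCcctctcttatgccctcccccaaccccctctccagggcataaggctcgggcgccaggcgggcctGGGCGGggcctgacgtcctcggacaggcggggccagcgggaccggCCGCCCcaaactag
Itga3: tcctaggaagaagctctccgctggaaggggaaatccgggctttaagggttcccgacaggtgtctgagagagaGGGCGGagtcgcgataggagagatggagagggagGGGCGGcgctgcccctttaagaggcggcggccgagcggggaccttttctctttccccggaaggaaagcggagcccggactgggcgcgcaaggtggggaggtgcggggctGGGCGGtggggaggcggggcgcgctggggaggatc
Itgb6: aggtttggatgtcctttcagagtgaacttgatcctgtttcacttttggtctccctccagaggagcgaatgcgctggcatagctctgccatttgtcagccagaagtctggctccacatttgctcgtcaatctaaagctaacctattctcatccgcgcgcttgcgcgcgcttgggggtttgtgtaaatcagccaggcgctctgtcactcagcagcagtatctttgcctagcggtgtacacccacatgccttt

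GGGCGG was matched 4 times in the promoter of Lama5, 3 times in that of Itga3, 2 times in that of Lamb1 and once in that of Nid1. Of all 32851 promoter windows of this length, 32.7% held it. CCAAT stood in the windows of Lamb1 and Nid1 and in 33.8% of all windows, and CATTCC stood in that of Nid1 and in 12.6% of all. The window of Itgb6 held none of the 6 motifs and had 52% G and C, against 62% for Lamb1, 64.4% for Nid1, 67.6% for Itga3 and 72.4% for Lama5. No window shown held TATAAA or the letters given for AP-1 and for GATA factors, which stood in 12.4%, 6.75% and 9.99% of all windows. The start of Itga3 in RefSeq lies 97 bases inside the gene model used for its counts. These matches describe letters and say nothing of binding.

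The libraries held 23971258 to 30540993 fragments assigned to genes, of which the members took 0.329 to 0.369% in E11.5H against 0.189 to 0.586% in HOs. The highest share was that of atrium-like replicate 2. Of the 39 members, 29 had fragments in every library, and 36 to 38 passed the filter for low counts in a given comparison. Levels are given as FPKM, fragment numbers scaled by transcript length and library size as the authors deposited them, so that chains of different length can be set side by side. Differences are log2 fold changes of the fragment numbers, with their standard errors (SE), from edgeR's quasi-likelihood test with TMM normalization. A gene is called at a Benjamini-Hochberg adjusted p, taken over all genes tested, under 0.05 where the log2 fold change also exceeds 1 in size, and calls are those of edgeR where no other tool is named. The tissues were checked against markers. The summed FPKM of 13 cardiomyocyte genes was 23429 to 27441 in atria, 20464 to 21699 in ventricles, 352 to 1231 in atrium-like parts and 1968 to 5146 in ventricle-like parts, and 12 of the 13 were lower in each HO part than in the matching chamber. In such bulk samples fewer cells of a type and less RNA per cell cannot be told apart.

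**Figure D1:**
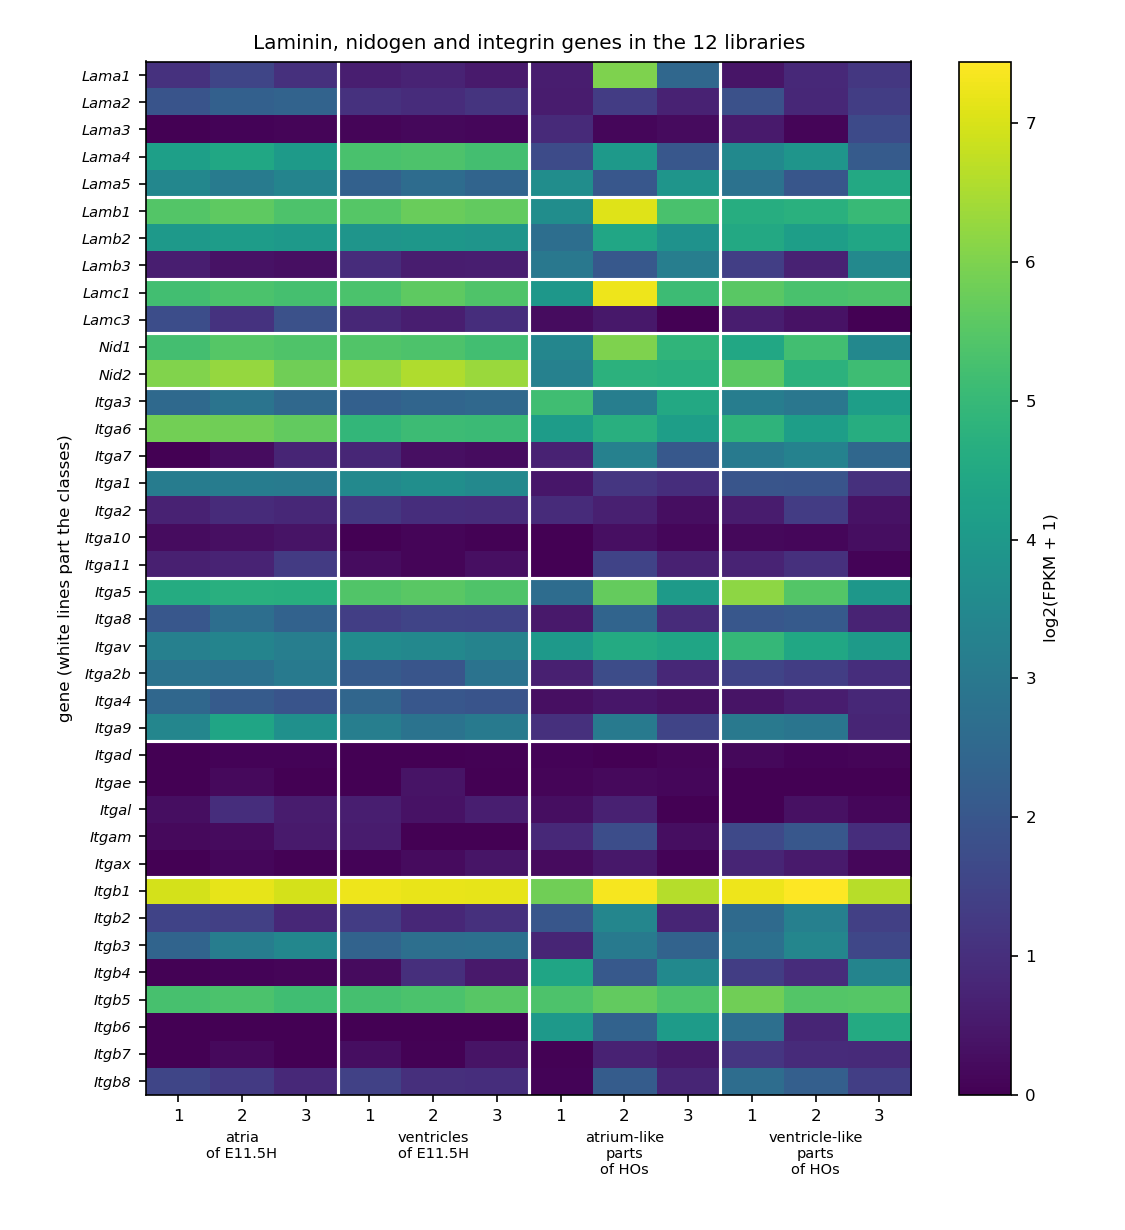
Level of 38 members in each of the 12 libraries, as colour on a log2(FPKM + 1) scale, with the replicates of the 4 groups in columns and the genes in rows by class. Columns within a group of E11.5H look alike, whereas atrium-like replicate 2 has the highest levels of Lama1, Lamb1 and Lamc1.

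Between the chambers of E11.5H, 5 of 36 members tested were higher in atria (Lama1, Lama2, Lamc3, Itga8 and Itga11) and 3 were lower, among them Lama4 and Itgb4. Over all 14536 genes 2.92% were called higher, 1.97% lower and 4.90% in either direction. The median log2 fold change was -0.02 over the members and 0.01 over all genes. In FPKM all atria lay above all ventricles for 11 members and below for 6, and for 3097 and 1711 of all 14536 genes. Without ventricles replicate 1 the count was 5 instead of 8, and that of all genes 654 instead of 712. Under limma on log2(FPKM + 1), Lama1, Lamc3, Itga8, Itga11 and Itgb4 were not called, and on log2(FPKM + 0.1) all 8 calls stayed. DESeq2 called 9 members, adding Itga10. Markers of other cell types moved with the chambers too, in both directions. Higher in atria were 2 of 5 smooth muscle genes and 2 of 3 skeletal muscle genes tested, with none lower. Of 10 macrophage and leukocyte genes 3 were higher and 1 lower, and of 7 neural genes tested 1 was higher and 2 lower. Of 5 cartilage genes tested 3 were lower and none higher. Of 8 fibroblast and mesenchyme genes 3 were higher in atria and 1 lower, with summed FPKM of 540.2 to 688 in atria against 383 to 447 in ventricles. Of 6 epicardial genes 2 were higher and none lower, with 256 to 267 and 124 to 127. None of these fibroblast and epicardial genes was at 0 in E11.5H. The part of any of these cell types in the chamber differences was not tested.

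Between the HO parts no member of 37 was called, and none of all 15703 genes was, which is 0%. At an unadjusted p under 0.05 stood 1 member and 889 of all genes. DESeq2's Wald test called 1 member there, Lama1, and limma called none. In the interaction of chamber and tissue, which asks whether the chamber difference of HOs departs from that of E11.5H, no member of 38 was called by edgeR against 0.152% of all 16494 genes. There 4 members had an unadjusted p under 0.05, and DESeq2 called Lama2 and Itgb4.

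Atrium-like parts differed from embryonic atria in 12 of 38 members. Of these, 6 were higher, among them Lamb3, Itga3, Itgav, Itgb4 and Itgb6, and 6 lower (Lama2, Nid2, Itga6, Itga1, Itga2b and Itga4), while over all 15418 genes 16.0% were higher, 8.81% lower and 24.8% either. The call count of all genes was 3821, fell to 1662 to 1726 without any one of the atria libraries and was 5495 without atrium-like replicate 2. DESeq2 called 18 members there, adding Lamc3, Itgam, Itga9, Itga7, Lama1 and Lama3, and limma called 14, adding Lamc3 and Itga9 with either pseudocount. Ventricle-like parts differed from embryonic ventricles in 9 of 37 members. Higher were Itga7, Itgav, Itgb2 and Itgb6, and lower were Lama4, Nid2, Itga1, Itga2b and Itga4. The background over all 15094 genes was 11.6% higher, 7.35% lower and 18.9% either. The median log2 fold change of the members was 0.06 in atrium-like and 0.39 in ventricle-like parts against 0.06 and 0.09 over all genes. These medians do not depend on the size of the largest fitted value, that of Itgb6. In ventricle-like parts DESeq2 called 17 members, the added ones including Lamb3, Itgam, Itga3, Itgb4, Itgb8, Itgb7 and Lama3, and limma added Itgam with either pseudocount. With log2(FPKM + 1) limma lost Itgb6 and Itgb2, and with log2(FPKM + 0.1) it lost Itgb2 and also added Itga3 and Itgb7. The count of members in ventricle-like parts was 6 without ventricles replicate 1, 3 without ventricles replicate 2 or 3 and 5 without ventricle-like replicate 1, when the count of all genes was 1201, 1116, 1212 and 2114 in place of 2859. The calls of 6 members were shared by both comparisons with E11.5H: Itgav and Itgb6 were higher and Nid2, Itga1, Itga2b and Itga4 lower. In all, 19 members were called in at least 1 comparison and 20 in none. How many of all genes were called in both comparisons with E11.5H, or in at least 1 of the 4, was not counted. These numbers of members therefore have no background beside them. In FPKM, all atrium-like libraries lay above all atria for 8 of 38 members and below for 9. Over all 15418 genes, 3714 lay above and 4678 below. Ventricle-like parts lay above ventricles for 9 of 37 members and below for 10. Over all 15094 genes, 4463 lay above and 3192 below, so such separation was common. How many genes separated all HO from all embryonic libraries was not counted.

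**Figure D2:**
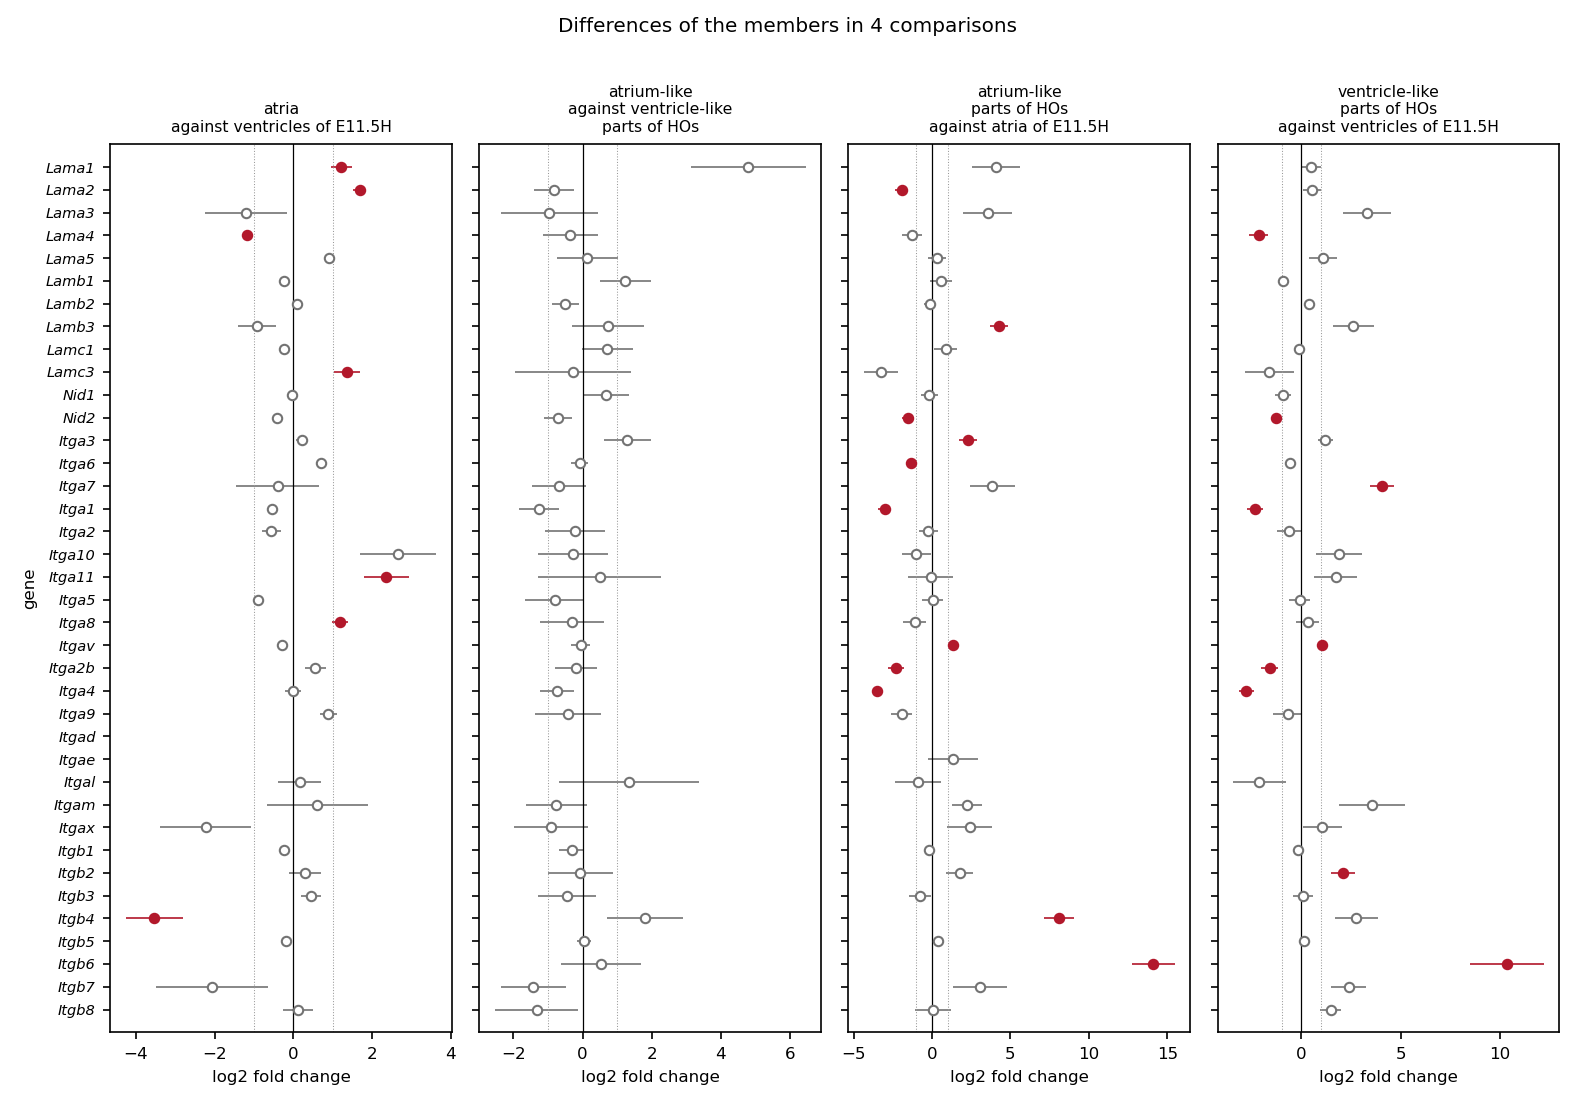
Log2 fold change of 38 members, where tested (horizontal axis, with bars of 1 standard error) in the 4 comparisons of groups, with called genes filled in red and genes that were not called open in grey; dotted lines stand at -1 and 1, and the scale differs between panels. Red points are 7 in the left panel, 0 in the second, 11 in the third and 9 in the right one, and the points of Itgb6 are fitted values that depend on a prior count.

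The α1 chain of the gel laminin was a minor transcript among the α chains of E11.5H, at 1.04 to 5.78% of their summed FPKM. The study chose the gel after earlier microarray data, in which it read Lama1, Lamb1, Lamc1 and Nid1 as mainly expressed in the embryonic heart. Those data are another measure and were not examined here. Lama1 (chr17:67697265-67822645 of GRCm38) was at 1.08, 1.96 and 1.03 FPKM in atria, 0.557, 0.657 and 0.445 in ventricles, 0.510, 63.1 and 4.60 in atrium-like parts and 0.334, 0.817 and 1.32 in ventricle-like parts. Every atrial library lay above every ventricular one, a log2 fold change of 1.22 (SE 0.27, edgeR's adjusted p = 0.0144). The call ended without atria replicate 2, at 0.87 (edgeR's adjusted p = 0.0559), and without ventricles replicate 1, at 1.21 (0.0506). In HOs a single library held most of it. Atrium-like replicate 2 stood far above the other HO libraries, and the fitted differences of atrium-like parts from atria (4.10, SE 1.53, edgeR's adjusted p = 0.0854) and from ventricle-like parts (4.79, SE 1.66, 0.750) were not called. Without that library they were 1.10 (edgeR's adjusted p = 0.308) and 1.83 (0.414), and without atrium-like replicate 1 the first was called, at 4.63 (0.0220).

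The partners of α1 were far more abundant and were transcribed in all 4 groups. Lamb1 (chr12:31265293-31329644), which codes for the β1 chain, was at 42.7, 47.1 and 40.0 FPKM in atria, 44.0, 52.5 and 49.4 in ventricles, 11.47, 133 and 38.7 in atrium-like and 23.9, 25.4 and 31.1 in ventricle-like parts. Lamc1 (chr1:153218922-153332786), for the γ1 chain found in most laminins, was at 35.8, 39.6 and 37.1 in atria, 39.1, 47.1 and 41.0 in ventricles, 14.4, 151 and 33.1 in atrium-like and 45.1, 38.2 and 40.5 in ventricle-like parts. Both peaked in atrium-like replicate 2, the library that was high for Lama1, and were lowest in atrium-like replicate 1. Neither was called in any comparison. For Lamb1 all 3 ventricle-like libraries lay below the ventricles, at a log2 fold change of -0.95 (SE 0.14, edgeR's adjusted p = 0.00656), just under the limit on size. Past that limit it was called without ventricles replicate 1, at -1.05, and without ventricle-like replicate 3, at -1.11.

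Both nidogens were transcribed in every library. Nid1 (chr13:13437602-13512275), the entactin gene, was at 36.2, 43.4 and 40.7 FPKM in atria, 42.3, 40.4 and 35.6 in ventricles, 9.73, 62.9 and 28.3 in atrium-like and 21.2, 35.5 and 10.03 in ventricle-like parts, and was called in no comparison. Nid2 (chr14:19751257-19811787), its paralog, was at 64.0, 75.3 and 55.6 in atria, 74.8, 93.1 and 78.9 in ventricles, 8.75, 26.6 and 25.2 in atrium-like and 46.3, 26.6 and 34.1 in ventricle-like parts. All HO libraries were below all embryonic ones for Nid2. The log2 fold change was -1.56 in atrium-like parts (SE 0.37, edgeR's adjusted p = 0.0223) and -1.29 in ventricle-like parts (SE 0.23, 0.0115). With 1 library left out these ran from -1.81 to -1.26 and from -1.55 to -1.10. The call against atria ended without any one of the atria libraries (highest edgeR's adjusted p = 0.0817), and that against ventricles without replicate 2 or 3 of the ventricles (0.0582). Nid2 overlaps Rtraf on the opposite strand, and the use of strand in counting is not given in the sources used here. As a share of both nidogens, Nid1 made up 30.3 to 42.3% in E11.5H, 52.6, 70.2 and 52.9% in atrium-like and 31.5, 57.1 and 22.7% in ventricle-like parts, so that it was the larger one in 4 of the 6 HO libraries.

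**Figure D3:**
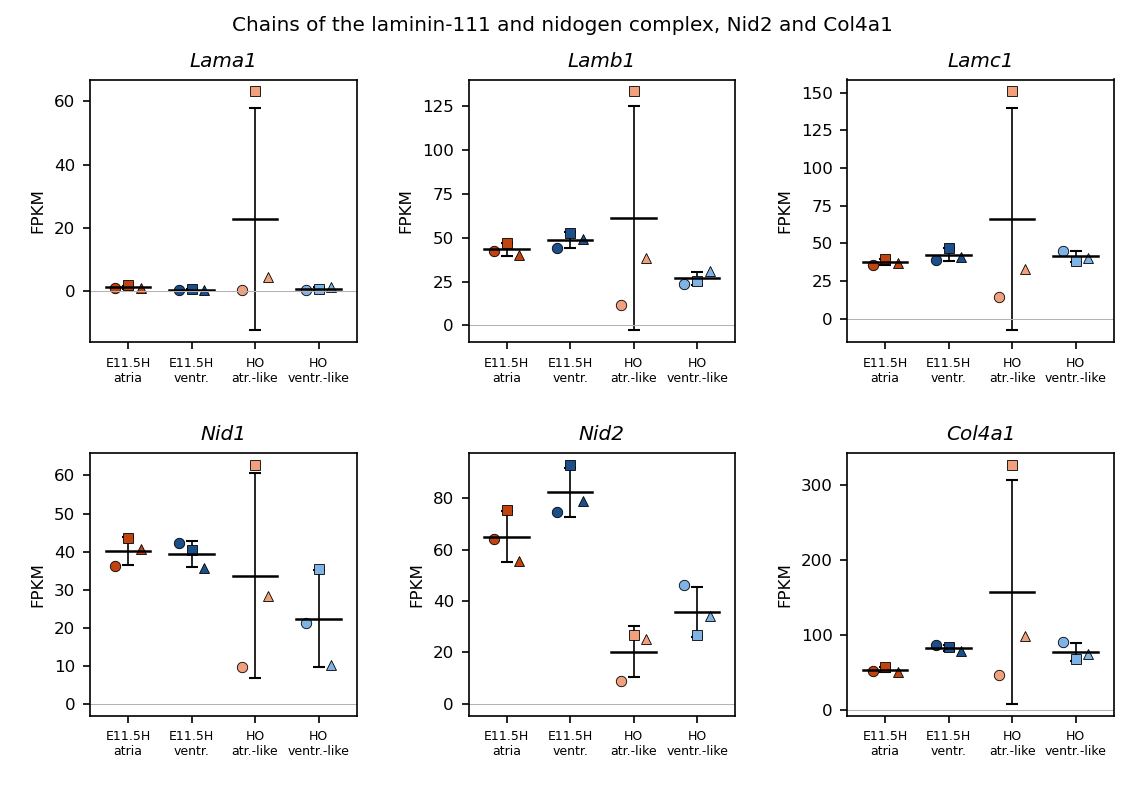
FPKM of the chains of the gel complex (Lama1, Lamb1, Lamc1 and Nid1), of Nid2 and of Col4a1 in each library of the 4 groups; circles, squares and triangles are replicates 1, 2 and 3, the line is the mean and the bar the SD (n = 3). The square of the atrium-like group, replicate 2, lies above all other points for every gene shown except Nid2, for which all HO points lie below the E11.5H points.

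The 2 chains of the main collagen IV, looked up after their values were seen, were high in the same library. Col4a1 was at 327 FPKM in atrium-like replicate 2 and 47.2 to 98.3 elsewhere, and Col4a2 at 209.8 against 39.1 to 80.1. Parietal endoderm of the yolk sac is known for making the laminin with the α1 chain, and 4 of its markers (Thbd, Plat, Pth1r and Fst) were also examined. Their summed FPKM was 191 in this library, 21.7, 56.5, 84.4, 93.4 and 34.4 in the other HO libraries in order, and 90.2 to 117 in atria and 56.5 to 62.9 in ventricles. None of the 4 was at 0 in any library. Of these markers 2 were higher and none lower in atria than in ventricles, the comparison in which Lama1 was called, 1 was lower in atrium-like parts and 1 higher and 1 lower in ventricle-like parts than in the matching chamber. Their part in the level of Lama1 was not tested.

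Chain use was then read within each library, as the percent that each chain took of the summed FPKM of its class. The measure has no test, since it is a score over chosen genes. In E11.5H the α4 chain of vessels and muscle led, and α5 came second. Lama4 took 56.1, 60.3 and 51.5% of the α chains in atria and 87.02, 85.2 and 85.9% in ventricles, and Lama5 took 31.4, 22.4 and 31.04% and 9.09, 11.2 and 10.1%. The 2 chambers did not overlap for either chain. HO libraries fell into unlike patterns. Lama5 led in atrium-like replicates 1 and 3 and ventricle-like replicate 3, at 74.0, 62.0 and 71.8%. Lama4 led in ventricle-like replicates 1 and 2, at 52.9 and 75.0%, and Lama1 led in atrium-like replicate 2, at 75.8%. Replicates of 1 HO group thus led with different chains, whereas all 6 embryonic libraries led with the same one.

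**Figure D4:**
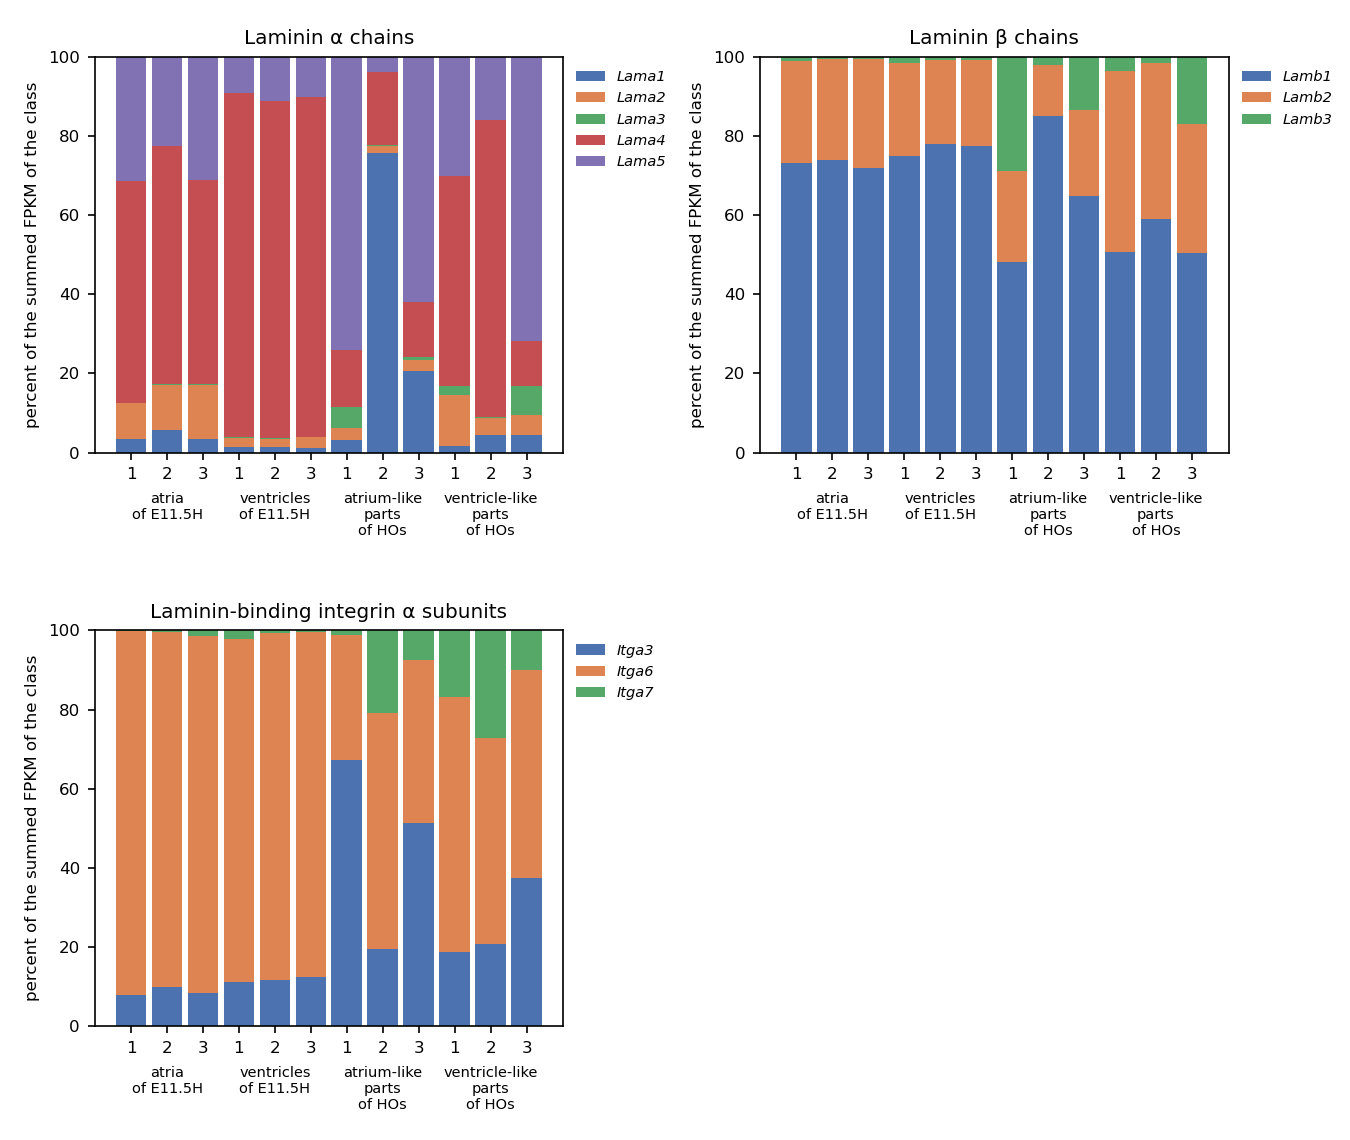
Percent of the summed FPKM of each class taken by each gene (stacked bars from 0 to 100) in each library, for laminin α and β chains and for the laminin-binding integrin α subunits. Bars within a group of E11.5H are alike, while in HOs the share of Lama4 runs from 11.3 to 75.0% and that of Itga6 from 31.5 to 64.6%.

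In levels, Lama4 (chr10:38965515-39110188) was at 17.5, 20.4 and 15.5 FPKM in atria, 38.2, 40.1 and 36.6 in ventricles, 2.27, 15.5 and 3.06 in atrium-like and 10.49, 13.9 and 3.41 in ventricle-like parts. It was lower in atria than in ventricles, at a log2 fold change of -1.17 (SE 0.09, edgeR's adjusted p = 2.62e-05), and this call held with each library left out (-1.27 to -1.09). Ventricle-like parts were lower than ventricles, at -2.15 (SE 0.48, edgeR's adjusted p = 0.0214). That call ended without any one of the ventricles libraries and without ventricle-like replicate 1, at values from -2.30 to -2.14 (highest edgeR's adjusted p = 0.0802). The 3 atrium-like libraries lay below the atria as well, replicate 2 by a narrow margin, at -1.29 (SE 0.66, edgeR's adjusted p = 0.179). Without atrium-like replicate 2 the difference was called, at -2.50 (0.000555).

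Lama5 (chr2:180176373-180225859), the α chain common to most adult basement membranes, was at 9.79, 7.58 and 9.35 FPKM in atria, 3.99, 5.26 and 4.30 in ventricles, 11.7, 3.09 and 13.8 in atrium-like and 5.98, 2.96 and 21.7 in ventricle-like parts. The atria exceeded the ventricles in every library, by 0.91 on the log2 scale (SE 0.13, edgeR's adjusted p = 0.00122). This was under the limit on size and past it without atria replicate 2 (1.02) or without ventricles replicate 2 (1.03). Lama2 (chr10:26981285-27616942), the α chain of skeletal and heart muscle, was at 2.84, 3.84 and 4.14 in atria, 1.09, 0.941 and 1.17 in ventricles, 0.471, 1.496 and 0.633 in atrium-like and 2.57, 0.775 and 1.57 in ventricle-like parts. It was higher in atria than in ventricles, by 1.68 (SE 0.17, edgeR's adjusted p = 0.000131), and in atrium-like parts it was below the atria, at -1.94 (SE 0.40, 0.0159). The latter call ended without any one of the atria libraries (highest edgeR's adjusted p = 0.0649), with values of -2.46 to -1.73 over all libraries left out. The chamber difference of Lama2 in HOs less that in E11.5H was -2.50 (SE 0.64, edgeR's adjusted p = 0.216) and reached 0.0492 without atrium-like replicate 2 (-3.00). Lama2 overlaps a transcript on the opposite strand. Lama3, the α chain of epithelial anchoring laminin, stayed at or below 0.108 FPKM in E11.5H and was at 0.850, 0.105 and 0.165 in atrium-like and 0.440, 0.0633 and 2.22 in ventricle-like parts, with no call.

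Among β chains Lamb1 took 72.03 to 78.0% in E11.5H against 48.2 to 85% in HOs and led in every library. Lamb2, the β2 chain, was second in E11.5H, at 13.8 to 16.3 FPKM, and ran from 5.51 to 21.5 in HOs, with no call. Lamb3 (chr1:193301994-193343878), the β chain of epithelial anchoring laminin, was at 0.556, 0.292 and 0.237 FPKM in atria, 0.914, 0.521 and 0.528 in ventricles, 6.84, 3.12 and 8.05 in atrium-like and 1.63, 0.647 and 10.4 in ventricle-like parts. All atrium-like libraries exceeded all atrial ones, by 4.25 on the log2 scale (SE 0.59, edgeR's adjusted p = 0.00531), and the call held with each library left out (4.01 to 4.72).

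Lamc3, which codes for the γ3 chain, was at 2.39, 1.14 and 2.58 FPKM in atria, 0.773, 0.530 and 0.976 in ventricles, 0.194, 0.393 and 0.00725 in atrium-like and 0.508, 0.274 and 0.00364 in ventricle-like parts. It was higher in atria than in ventricles, by 1.36 (SE 0.33, edgeR's adjusted p = 0.0221). The call ended without atria replicate 1 (1.21) or 3 (1.15) and without ventricles replicate 1 (1.35) or 2 (1.15), at edgeR's adjusted p up to 0.0966.

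Among the laminin-binding α subunits Itga6 led in all 6 embryonic libraries and in 4 of 6 HO libraries. Itga6 (chr2:71786939-71858427), a receptor subunit for most laminins, was at 57.0, 56.4 and 49.8 FPKM in atria, 29.6, 33.7 and 32.4 in ventricles, 16.3, 24.8 and 17.2 in atrium-like and 27.7, 16.9 and 23.9 in ventricle-like parts. All HO libraries lay below all embryonic ones. Atrium-like parts were lower than atria, at a log2 fold change of -1.33 (SE 0.16, edgeR's adjusted p = 0.00373), a call that held with each library left out. Ventricle-like parts were at -0.57 against ventricles (SE 0.20, edgeR's adjusted p = 0.0803). Within E11.5H the atria exceeded the ventricles by 0.70 (SE 0.08, edgeR's adjusted p = 0.000367), under the limit on size. Its share of the laminin-binding α subunits was 86.6 to 92.1% in E11.5H, 31.5, 59.8 and 41.2% in atrium-like and 64.6, 52.1 and 52.5% in ventricle-like parts.

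Itga3 (chr11:95044475-95076811), whose protein binds the laminins with α3 and α5 chains, was at 4.87, 6.22 and 4.66 FPKM in atria, 3.83, 4.41 and 4.66 in ventricles, 34.8, 8.07 and 21.4 in atrium-like and 7.97, 6.73 and 17.1 in ventricle-like parts. Every HO library exceeded every embryonic one, and the highest were atrium-like replicates 1 and 3 and ventricle-like replicate 3. Against atria the log2 fold change was 2.28 (SE 0.58, edgeR's adjusted p = 0.0280). This call ended without any one of the atria libraries and without atrium-like replicate 3 (2.32, edgeR's adjusted p = 0.0703), and the value ran from 1.61 to 2.70. Against ventricles it was 1.21 (SE 0.37, edgeR's adjusted p = 0.0556), and called without ventricle-like replicate 2, at 1.47. Itga3 took 7.88 to 12.5% of the laminin-binding α subunits in E11.5H and led them in atrium-like replicates 1 and 3, at 67.2 and 51.3%.

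Itga7 (chr10:128933813-128958284), the laminin receptor subunit of skeletal and cardiac muscle, was at 0.00681, 0.193 and 0.712 FPKM in atria, 0.736, 0.231 and 0.188 in ventricles, 0.643, 8.64 and 3.16 in atrium-like and 7.21, 8.78 and 4.60 in ventricle-like parts. The ventricle-like parts exceeded the ventricles in every library, by 4.07 on the log2 scale (SE 0.62, edgeR's adjusted p = 0.00717), and the call held with each library left out (3.74 to 4.90). Atrium-like parts overlapped with atria and were not called (3.84, SE 1.44, edgeR's adjusted p = 0.0871). Itga7 overlaps Mettl7b on the opposite strand. The summed FPKM of 9 skeletal muscle genes was 3.20, 95.6 and 2.74 in atrium-like and 4.41, 105 and 3.45 in ventricle-like parts, against 20.0 to 30.7 in atria and 17.2 to 20.8 in ventricles, and was high in the second replicate of each HO part. Myod1, which defines skeletal muscle precursors, was at 10.2 and 19.3 FPKM there and listed at 0 in the 4 other HO libraries and in all 3 ventricles. Itga7 was highest in the same second replicates, at 8.64 and 8.78 FPKM, and was at 7.21 in ventricle-like replicate 1, where Myod1 was listed at 0. Of the skeletal muscle genes tested, 0 of 6 were called in atrium-like parts by edgeR, none at an unadjusted p under 0.05, and 1 of 3 was higher in ventricle-like parts. The part of skeletal muscle cells in the level of Itga7 was not tested.

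Itgb1 (chr8:128685654-128733579), the common β partner of the laminin, collagen and fibronectin receptors, was the most abundant integrin gene in every library. It was at 124, 143 and 123 FPKM in atria, 153, 145 and 142 in ventricles, 55.9, 160.3 and 97.5 in atrium-like and 152, 173 and 98.6 in ventricle-like parts, and was called in no comparison. Itgb4 (chr11:115974725-116008411), which pairs with α6 in hemidesmosomes, was at 0.0323, 0.0483 and 0.0651 in atria, 0.163, 1.01 and 0.435 in ventricles, 19.7, 3.25 and 10.6 in atrium-like and 1.56, 0.943 and 9.20 in ventricle-like parts. Atria were below ventricles, at a log2 fold change of -3.53 (SE 0.73, edgeR's adjusted p = 0.00959), a call that ended without ventricles replicate 2, at -2.71 (0.0755). Atrium-like parts were above atria in every library, at 8.10 (SE 0.94, edgeR's adjusted p = 0.00350), which held with each library left out (7.28 to 8.56). For ventricle-like parts the groups overlapped, at 2.77 (SE 1.08, edgeR's adjusted p = 0.102). The chamber difference in HOs less that in E11.5H was 5.29 (SE 1.48, 0.249). Itgb4 overlaps Galk1 on the opposite strand.

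The HO libraries high for Lama5, Lamb3, Itga3 and Itgb4 were the same, namely atrium-like replicates 1 and 3 and ventricle-like replicate 3. Markers of epithelium were high in the same 3 libraries. The summed FPKM of 12 genes of gut and other epithelium was 4083, 1208 and 3950.0 in atrium-like and 1021, 637 and 2756 in ventricle-like parts, against 73.6 to 91.7 in atria and 80.6 to 100.2 in ventricles. All 12 were higher in atrium-like parts than in atria, as were 10 of 11 tested in ventricle-like parts than in ventricles. Epcam, a surface protein of epithelia, was at 701, 107 and 409 and 58.4, 5.67 and 235 FPKM in the HO parts and at most 0.496 in E11.5H, where Foxa2 and Cdx2 were listed at 0 in 5 of 6 libraries, Cldn6 in 4, Foxa1 in 3, Cldn4 in 2 and Cdh1 in 1. The 10 genes of hepatocytes and visceral endoderm followed the same order, at 15427, 914 and 5849 in atrium-like and 281, 35.3 and 5016 in ventricle-like parts against 2.87 to 6.70 in E11.5H, with 10 of 10 and 4 of 8 called higher. The part of such cells in the levels of these chains was not tested.

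**Figure D5:**
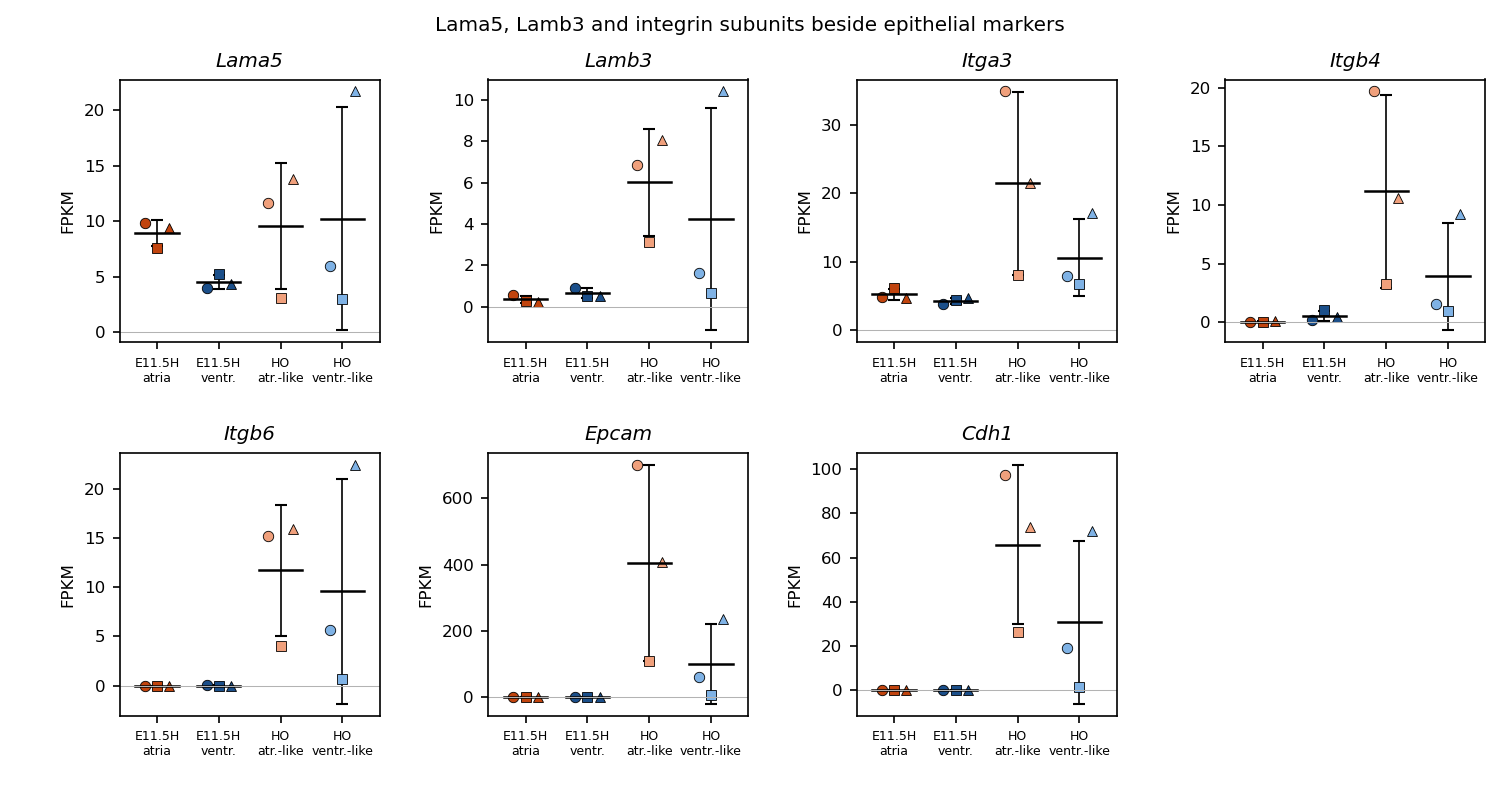
FPKM of Lama5, Lamb3, Itga3, Itgb4 and Itgb6 and of the epithelial markers Epcam and Cdh1 in each library of the 4 groups; circles, squares and triangles are replicates 1, 2 and 3, the line is the mean and the bar the SD (n = 3). In HOs the circle and triangle of the atrium-like group and the triangle of the ventricle-like group lie above the other HO points for all 7 genes shown.

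Itgb6 (chr2:60598292-60722603), which pairs with αv on epithelial cells and activates latent TGF-β, showed the widest gap of any member. No fragment was found in the 3 atria libraries. Ventricles had 3, 0 and 0 fragments. Atrium-like parts had 2225, 701 and 2648 fragments, or 15.2, 4.05 and 15.9 FPKM, and ventricle-like parts 938, 116 and 3720, or 5.61, 0.695 and 22.4 FPKM. Against a limit of 3 fragments over the atria together, atrium-like parts were at least 2202-fold higher. The ratio of ventricle-like parts to ventricles was 1441 (95% exact interval 493 to 6988, counting error only). Both differences were called (edgeR's adjusted p = 0.00543 and 0.0117). The second call ended without any one of the ventricles libraries, at edgeR's adjusted p up to 0.0782, and with limma on log2(FPKM + 1). Its partner Itgav (chr2:83724397-83806917) was at 8.44, 9.26 and 8.16 FPKM in atria, 11.03, 10.1 and 8.97 in ventricles, 15.4, 22.3 and 19.8 in atrium-like and 29.9, 20.7 and 15.7 in ventricle-like parts. All HO libraries exceeded all embryonic ones, by 1.31 on the log2 scale in atrium-like (SE 0.14, edgeR's adjusted p = 0.00285) and 1.05 in ventricle-like parts (SE 0.25, 0.0247). The call in ventricle-like parts ended without any one of the ventricles libraries (highest edgeR's adjusted p = 0.106) and without ventricle-like replicate 1, at 0.74. Itgb5, the vitronectin receptor partner of αv, was at 35.1 to 44.4 FPKM in E11.5H against 40.1 to 55.5 in HOs, with no call. Itgb3, which pairs with αv and with the platelet subunit αIIb, was at 4.22 to 9.96 in E11.5H against 0.707 to 9.70 in HOs, and Itgb8, another activator of latent TGF-β, at 0.796 to 1.92 and 0.0564 to 5.36, and neither was called.

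Other RGD-binding α subunits differed between chambers or tissues. Itga5, the fibronectin receptor subunit, was the most abundant of them, at 23.2, 25.1 and 24.3 FPKM in atria, 41.7, 45.1 and 41.0 in ventricles, 5.16, 50.0 and 15.7 in atrium-like and 70.9, 42.8 and 14.2 in ventricle-like parts, and was not called. Itga8 (chr2:12106634-12301944), a nephronectin receptor subunit, was at 3.03, 5.46 and 4.10 in atria, 1.61, 1.87 and 1.81 in ventricles, 0.436, 4.23 and 0.872 in atrium-like and 3.08, 3.29 and 0.670 in ventricle-like parts. It was higher in atria than in ventricles, by 1.18 on the log2 scale (SE 0.20, edgeR's adjusted p = 0.00348), and fell under the limit on size without atria replicate 2, at 0.95. Itga8 overlaps a transcript on the opposite strand.

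Itga2b (chr11:102453297-102469883), the platelet fibrinogen receptor subunit, was at 6.12, 5.86 and 7.39 FPKM in atria, 3.43, 2.88 and 6.16 in ventricles, 0.590, 2.31 and 0.760 in atrium-like and 1.88, 1.57 and 0.978 in ventricle-like parts. All HO libraries were below all embryonic ones. The log2 fold change was -2.30 in atrium-like (SE 0.50, edgeR's adjusted p = 0.0175) and -1.60 in ventricle-like parts (SE 0.43, 0.0371). The first call held without atrium-like replicates 1 and 2 and ended without any other library, and the second held without ventricle-like replicate 3 and ended without any other library, with values of -3.01 to -2.05 and -1.85 to -1.18. Of 7 megakaryocyte and platelet genes, 5 of 7 were lower in atrium-like parts and 0 of 6 tested were called by edgeR in ventricle-like parts, where 1 had an unadjusted p under 0.05. Their summed FPKM was 94.99 to 124 in atria, 45.6 to 86.02 in ventricles, 6.73 to 56.7 in atrium-like parts and 13.6 to 195 in ventricle-like parts, Gp6 was listed at 0 in all 6 HO libraries and Gp9 in the first replicate of each HO part. The part of platelets and their precursors was not tested.

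Among the collagen receptors Itga1 (chr13:114958081-115101964), which binds collagen IV and laminin, was at 7.74, 7.81 and 7.54 FPKM in atria, 10.3, 11.7 and 10.2 in ventricles, 0.368, 1.26 and 0.976 in atrium-like and 2.87, 2.83 and 1.05 in ventricle-like parts. All HO libraries were below all embryonic ones, at log2 fold changes of -3.02 in atrium-like (SE 0.39, edgeR's adjusted p = 0.00455) and -2.35 in ventricle-like parts (SE 0.39, 0.00954). Both calls held with each library left out. Itga1 overlaps Pelo on the same strand, so some of its fragments could be split between the genes. Itga11, a receptor of fibrillar collagen, was at 0.572, 0.667 and 1.44 in atria, 0.177, 0.0690 and 0.247 in ventricles, 0, 1.82 and 0.604 in atrium-like and 0.668, 1.04 and 0.04997 in ventricle-like parts. It was higher in atria than in ventricles, by 2.36 (SE 0.57, edgeR's adjusted p = 0.0208). That call ended without atria replicate 3 (1.83) and without ventricles replicate 1 (2.40) or 2 (1.99), at edgeR's adjusted p up to 0.120. Itga2 and Itga10 stayed at or under 1.51 FPKM in every library and were not called by edgeR, while DESeq2 called Itga10 between the embryonic chambers.

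Itga4 (chr2:79255426-79333114), the receptor subunit for VCAM1 and fibronectin, was at 4.58, 3.41 and 2.81 FPKM in atria, 4.45, 3.05 and 2.83 in ventricles, 0.242, 0.375 and 0.249 in atrium-like and 0.323, 0.525 and 0.762 in ventricle-like parts. All HO libraries were below all embryonic ones, at log2 fold changes of -3.48 in atrium-like (SE 0.30, edgeR's adjusted p = 0.00168) and -2.77 in ventricle-like parts (SE 0.37, 0.00475). Both calls held with each library left out. Itga4 overlaps Cerkl on the opposite strand. Itga9, its nearest relative, was at 9.62, 19.8 and 12.4 in atria, 8.02, 6.18 and 7.23 in ventricles, 1.06, 7.33 and 1.86 in atrium-like and 7.09, 6.36 and 0.722 in ventricle-like parts. All atrium-like libraries lay below all atria, which edgeR did not call and DESeq2 and limma called. The summed FPKM of 10 endothelial and endocardial genes was 250.4 to 285 in atria, 278 to 293 in ventricles, 12.3, 86.6 and 28.2 in atrium-like and 39.3, 57.3 and 20.9 in ventricle-like parts. Plvap, a protein of endothelial diaphragms, was at 92.7 to 109.9 FPKM in E11.5H against 0.104, 16.4 and 0.457 and 0.561, 7.38 and 0.107 in the HO parts. Other markers of the list differed less. Egfl7 was at 17.7 to 21.2 in E11.5H against 8.03, 26.0 and 17.1 and 15.1, 16.9 and 15.5. Kdr was at 17.5 in ventricle-like replicate 1 against 10.2 to 14.3 in ventricles. The fitted values of all 10 were negative in both HO parts against the matching chamber. Of the 10 markers, 2 were lower in atrium-like and 3 in ventricle-like parts, Tie1 was listed at 0 in atrium-like replicate 3 and Emcn in atrium-like replicate 1. The part of endothelium in the levels of Lama4, Itga1 and Itga4 was not tested.

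Leukocyte integrin subunits were measured last. Itgb2 (chr10:77530370-77565708), their shared β subunit, was at 1.82, 1.66 and 0.766 FPKM in atria, 1.49, 0.781 and 1.04 in ventricles, 3.01, 9.78 and 0.722 in atrium-like and 4.99, 8.38 and 1.67 in ventricle-like parts. Ventricle-like parts exceeded ventricles, by 2.08 on the log2 scale (SE 0.62, edgeR's adjusted p = 0.0480). The call ended without any one of 5 libraries, holding without ventricle-like replicate 3, with values of 1.53 to 2.46. Limma with either pseudocount, no filter for low counts, a fit of all 12 libraries and a replicate block ended it too. Itgam, the α subunit of macrophages and granulocytes, was at 0.151, 0.171 and 0.454 in atria, 0.480, 0 and 0.0145 in ventricles, 0.806, 2.39 and 0.203 in atrium-like and 2.14, 3.03 and 0.975 in ventricle-like parts. All ventricle-like libraries lay above all ventricles, which edgeR did not call and DESeq2 and limma called. Itgal, Itgax and Itgb7 stayed at or under 1.25 FPKM and were not called, and Itgad and Itgae stayed at or under 0.306 FPKM. Itgad passed the filter for low counts in no comparison, and Itgae among the comparisons of groups passed only in that of atrium-like parts with atria, without a call. The summed FPKM of 10 macrophage and leukocyte genes was 22.0 to 39.8 in atria, 45.7 to 60.1 in ventricles, 185, 749.7 and 81.8 in atrium-like and 476, 650.5 and 128 in ventricle-like parts, with 4 of 10 higher in atrium-like and 6 of 10 in ventricle-like parts. Ptprc, the common leukocyte antigen, was listed at 0 in ventricles replicate 2. Among HO libraries Itgb2 and Itgam were highest where that sum was, in atrium-like replicate 2 and ventricle-like replicates 1 and 2. The part of macrophages was not tested.

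Genes around the members were counted from lists of other basement membrane genes, non-integrin laminin receptors, integrin adaptors and other integrin ligands. Over all genes tested, 2.92% were called higher and 1.97% lower between the embryonic chambers. The shares were 16.0% and 8.81% in atrium-like parts, 11.6% and 7.35% in ventricle-like parts and 0.152% in the interaction. They are the background for the counts of these lists and of the markers above. Of the basement membrane genes, 1 was higher and 2 lower of 21 tested between atria and ventricles of E11.5H, 3 higher and 5 lower of 22 in atrium-like parts against atria, and 3 higher and 2 lower of 22 in ventricle-like parts against ventricles. Tinagl1, a laminin-binding matrix protein, was at 5.91 to 12.3 FPKM in atria, 23.3 to 26.3 in ventricles, 131 to 249.9 in atrium-like parts and 68.2 to 209 in ventricle-like parts. Its log2 fold changes were -1.33 between the chambers, 4.35 in atrium-like and 2.22 in ventricle-like parts (edgeR's adjusted p = 0.00383, 0.00244 and 0.0157). Smoc2, a SPARC-related matrix protein, was higher in atria than in ventricles (20.2, 34.8 and 26.4 against 1.82, 2.48 and 2.27 FPKM), by 3.55 (edgeR's adjusted p = 3.12e-06). It was lower in atrium-like parts, at 3.84, 3.57 and 3.24 FPKM and a log2 fold change of -2.74 (edgeR's adjusted p = 0.00211), and its chamber difference in HOs less that in E11.5H was -3.60 (0.0398). It was the 1 gene of the 4 lists called in the interaction. Ntn4, a netrin that binds laminin γ chains, was lower in atria than in ventricles (-1.75, edgeR's adjusted p = 0.0403) and higher in atrium-like parts than in atria (3.57, 0.0438), where replicate 2 had 18.2 FPKM and the others 0.928 and 6.75.

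Of 7 non-integrin laminin receptors none was called between the embryonic chambers, where 3 had an unadjusted p under 0.05, 2 were higher and 1 lower in atrium-like parts and 2 higher in ventricle-like parts. Sdc4 and Sdc1, heparan sulfate proteoglycans of the cell surface, were the higher ones in both. Sdc4 was at 9.91 to 12.7 FPKM in E11.5H against 39.6 to 90.9 in HOs, with log2 fold changes of 2.52 and 2.58 (edgeR's adjusted p = 0.00192 and 0.00164). Those of Sdc1 were 1.23 and 1.36 (edgeR's adjusted p = 0.0141 and 0.00325). Bcam, the Lutheran receptor of the α5 chain, was lower in atrium-like parts, at 18.7, 27.7 and 45.1 FPKM against 86.6, 78.5 and 93.1 in atria (-1.34, edgeR's adjusted p = 0.0209). It was called in no other comparison.

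Of the integrin adaptors, 1 of 22 was lower in atria than in ventricles, 3 were higher and 1 lower of 23 in atrium-like parts, and 2 were higher and 2 lower of 22 in ventricle-like parts. Itgb1bp2, melusin, which binds the β1 tail in muscle, was at 75.9, 63.6 and 61.7 FPKM in atria and 40.0, 34.2 and 33.5 in ventricles, and at 0.297, 1.92 and 0.309 in atrium-like and 1.82, 2.51 and 1.76 in ventricle-like parts. Its log2 fold changes were -6.21 and -4.24 (edgeR's adjusted p = 0.00387 and 0.000781), next to cardiomyocyte markers that were lower in the same libraries. Src, a kinase downstream of integrins, was higher in both parts (1.60 and 1.08, edgeR's adjusted p = 0.0162 and 0.0351). Tln2, a talin of muscle and other tissues, was lower in atria than in ventricles (-1.05, edgeR's adjusted p = 8.78e-05) and in ventricle-like parts than in ventricles (-1.51, 0.00832).

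Of the other integrin ligands, 2 were higher and 2 lower of 13 between the embryonic chambers, 7 higher and 0 lower of 17 in atrium-like parts, and 7 higher and 2 lower of 16 in ventricle-like parts. Col1a1, the main fibrillar collagen, was at 89.0 to 115 FPKM in atria, 44.8 to 47.2 in ventricles, 137, 512 and 176 in atrium-like and 956, 351 and 87.9 in ventricle-like parts. Its log2 fold changes were 1.11, 1.51 and 3.26 (edgeR's adjusted p = 2.08e-05, 0.0418 and 0.0307). Fgb, a fibrinogen chain made by hepatocytes, was at 163, 8.01 and 142 FPKM in atrium-like and 5.20, 0.359 and 163 in ventricle-like parts and at most 0.128 in E11.5H, and Cdh1, a ligand of the αE integrin and an adhesion protein of epithelia, was at 97.3, 26.5 and 74.0 and 19.1, 1.32 and 71.8 and at most 0.0281. Both were higher in both HO parts (edgeR's adjusted p = 0.0147 and 0.0407 for Fgb, 0.00133 and 0.0116 for Cdh1). Over the 4 lists no gene was called by edgeR between atrium-like and ventricle-like parts, where 2 basement membrane genes and 0 of the other lists had an unadjusted p under 0.05. The median log2 fold changes in atrium-like and ventricle-like parts against the matching chambers were -0.09 and 0.05 for the basement membrane genes, 0.14 and 0.59 for the receptors, -0.65 and -0.20 for the adaptors and 1.18 and 1.80 for the ligands, beside 0.06 and 0.09 over all genes tested.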

How the data were processed

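Total RNA of the 12 libraries was sequenced by a company for the study, aligned with STAR to mm10 (GRCm38) and deposited as 1 table. In it the authors gave fragment counts per gene, of which 23.8% of values were not whole, so they were treated like expected counts and rounded. Beside them the authors gave FPKM. The counting tool and its use of strand are not given in the sources used here. Groups followed the sample labels. The genes were selected by name, and 1 of them enters the counts but is not reported here. Genes described library by library were the chains of the gel complex, the nidogens, the laminin-binding subunits, every member called in a comparison and the most abundant of each class, plus at most 3 of each neighbouring list. Members and lists were chosen with earlier results of these data known, and the single marker genes named, Col4a1 and Col4a2 after their values were seen.

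Pairs of groups were tested alone, and the interaction over all 12 libraries, with edgeR 4.0.16 (quasi-likelihood F test, TMM, filterByExpr with a minimum count of 10) in R 4.3.3 and Benjamini-Hochberg adjustment. limma 3.58.1 on log2(FPKM + pseudocount) and DESeq2 1.42.0 were alternatives, with other scalings, filters, a replicate block and each library left out; neighbouring and marker genes were not refitted. Tests were also run on simulated counts, drawn for each gene independently. Such counts hold no library that departs over many genes together, so they cannot speak for the unlike HO libraries. The p-values measure the spread among 3 libraries a group, and the interval and floor for Itgb6 cover counting error only.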

Additional observations from a re-analysis of the deposited data

How the results depend on the processing

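Between the embryonic chambers 8 members were called, against 3 with limma on log2(FPKM + 1), 0 with all 12 libraries in one fit, 15 with no limit on fold change, and 5 to 8 with 1 library left out. Between the HO parts the count of 0 became 1 with DESeq2 and was 0 to 0 with 1 library left out. In atrium-like parts against atria the count of 12 ran from 8 to 16 with 1 library left out and from 12 to 18 with the other settings. In ventricle-like parts against ventricles the count of 9 was 17 with DESeq2 and 3 to 13 with 1 library left out. In the interaction the count of 0 became 2 with DESeq2 and was 0 to 1 with 1 library left out. Over all genes the chamber count of 712 in E11.5H was 386 with limma on log2(FPKM + 1), 30 with all 12 libraries and 1982 with no limit, that between HO parts was 56 with DESeq2, that of ventricle-like parts 4462 with no limit against 2859 (1116 to 3725 with 1 library left out), that of atrium-like parts 1662 to 5495 with 1 left out against 3821, and the interaction's 25 was 444 with DESeq2, 89 and 45 with limma and 5 with the block. With library totals alone the median of all genes moved from 0.09 to 0.23 in ventricle-like parts, from -0.03 to -0.17 between HO parts and from -0.03 to -0.28 in the interaction. The causes were not tested.

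Whether same-numbered HO parts came from the same HO is not given in the sources used here. The numbers were not taken to pair the samples, since same-number correlations of deviations were not over 0.1 in every pair, at -0.07, 0.61 and 0.42 between HO parts and 0.02, 0.04 and 0.08 between embryonic chambers. Between different numbers of HO parts they ran from -0.73 to 0.50, so these values cannot decide on pairing. In the study HOs in triplicate were cut into both parts, so pairing remains possible. With the replicate block 8 members were called between embryonic chambers, 0 between HO parts, 13 in atrium-like parts (Itga3 lost, Itga7 and Itga9 gained), 7 in ventricle-like parts (Itgb2 and Itga2b lost) and 0 in the interaction. Of 29 called differences none changed sign under any alternative, and of the 46 uncalled values that were followed 15 did, the largest of them 0.99 in absolute value. The 46 came from the gel chains, Nid2, Itga3, Itga6, Itga7, Itgb1 and Itgb4 and a few values of other members. Uncalled values beyond these were not followed. Shares from TMM-normalized CPM per length equal those from FPKM by construction and test nothing. With 3 libraries a group and unlike HO libraries, differences that depend on 1 library or just pass the threshold are the least certain.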
